A study of Oryza sativa with 8 samples.

Results

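The genes described here encode the enzymes that take nitrate to ammonium and place that ammonium in glutamine, glutamate and asparagine. They are 9 rice loci, chosen by locus identifier, of 34119 loci in the deposited expression table: nitrate reductase NIA1 (LOC_Os08g36480), nitrite reductase NiR1 (LOC_Os01g25484), the glutamine synthetases GS1-1 (LOC_Os02g50240), GS1-2 (LOC_Os03g12290) and GS2 (LOC_Os04g56400), the glutamate synthases NADH-GOGAT1 (LOC_Os01g48960) and Fd-GOGAT (LOC_Os07g46460), and the asparagine synthetases AS1 (LOC_Os03g18130) and AS2 (LOC_Os06g15420). All 9 have a row and all 9 passed the filter on low values. The 9 loci and the gene lists used below were chosen with earlier results of these data known. The locus identifiers place them on chromosomes 1, 2, 3, 4, 6, 7 and 8. The names of NIA1, GS1-1, GS1-2, GS2 and Fd-GOGAT were found in the RefSeq gene table on the same chromosome. Their gene spans there were close to the length behind the FPKM values, except for GS1-2, with 4232 bp against 4818 bp. The names of the other 4 were given from memory of the locus identifiers and could not be checked against a table.

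Whole seedlings, 14 days old, were profiled by stranded RNA sequencing of polyadenylated RNA in 8 libraries. WT_control was untreated wild-type (NIP, n = 3), WT_PEG was wild-type after 3 h in 20% polyethylene glycol (PEG8000, n = 2), and 708RNAi_PEG was an SDG708 RNAi line, labelled 708Ri-1-1, after the same treatment (n = 3). PEG of this size stays outside the cells and draws water from the plant, and SDG708 belongs to the SET-domain histone methyltransferases. All seedlings had grown first on solid and then in liquid medium, for 7 days each, under short days (10 h light at 30 °C, 14 h dark at 28 °C). The RNAi group is 1 line, no untreated RNAi sample was analysed here, and the SDG708 row was not analysed here, so the knockdown was not checked and a difference between genotypes cannot be divided into parts that do and do not depend on PEG. The labels do not say that the libraries of a group came from separate plants, so p-values measure the spread between libraries, which may be technical.

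Nitrate reductase and nitrite reductase act in sequence, in the cytosol and the plastid, to turn nitrate into ammonium. Glutamine synthetase binds ammonium to glutamate, and glutamate synthase, also called GOGAT, passes the amide nitrogen of glutamine to 2-oxoglutarate, so that the pair forms a cycle. GS2 and Fd-GOGAT work in the chloroplast and take up much of the ammonium released in photorespiration, while the GS1 isoenzymes are cytosolic and NADH-GOGAT is best known from roots and young, non-green tissue. Asparagine synthetase moves the amide nitrogen of glutamine to aspartate, and asparagine is a nitrogen-rich compound for storage and transport that often accumulates in stressed plants.

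After 3 h of PEG the transcripts of the asparagine synthetase AS1 were 4.01 times as abundant as in untreated wild-type. Those of GS1-2 were at 0.207 of their untreated level. Both are ratios of mean FPKM (fragments scaled to gene length and to a denominator per library). NIA1, NiR1, all 3 glutamine synthetases and Fd-GOGAT were lower, and NADH-GOGAT1 and AS1 were higher, while the small change of AS2 depended on how libraries were scaled. A further nitrate reductase gene outside the 9, NR2, went the other way from NIA1, with 12.5 times its untreated mean FPKM. In the RNAi line under PEG, AS1 was higher again, at 1.85 times its level in treated wild-type, GS1-2 was 1.42 times as high, and NIA1, GS1-1, GS2 and Fd-GOGAT were lower. NiR1, NADH-GOGAT1 and AS2 did not pass the test between the treated genotypes.

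**Figure D1:**
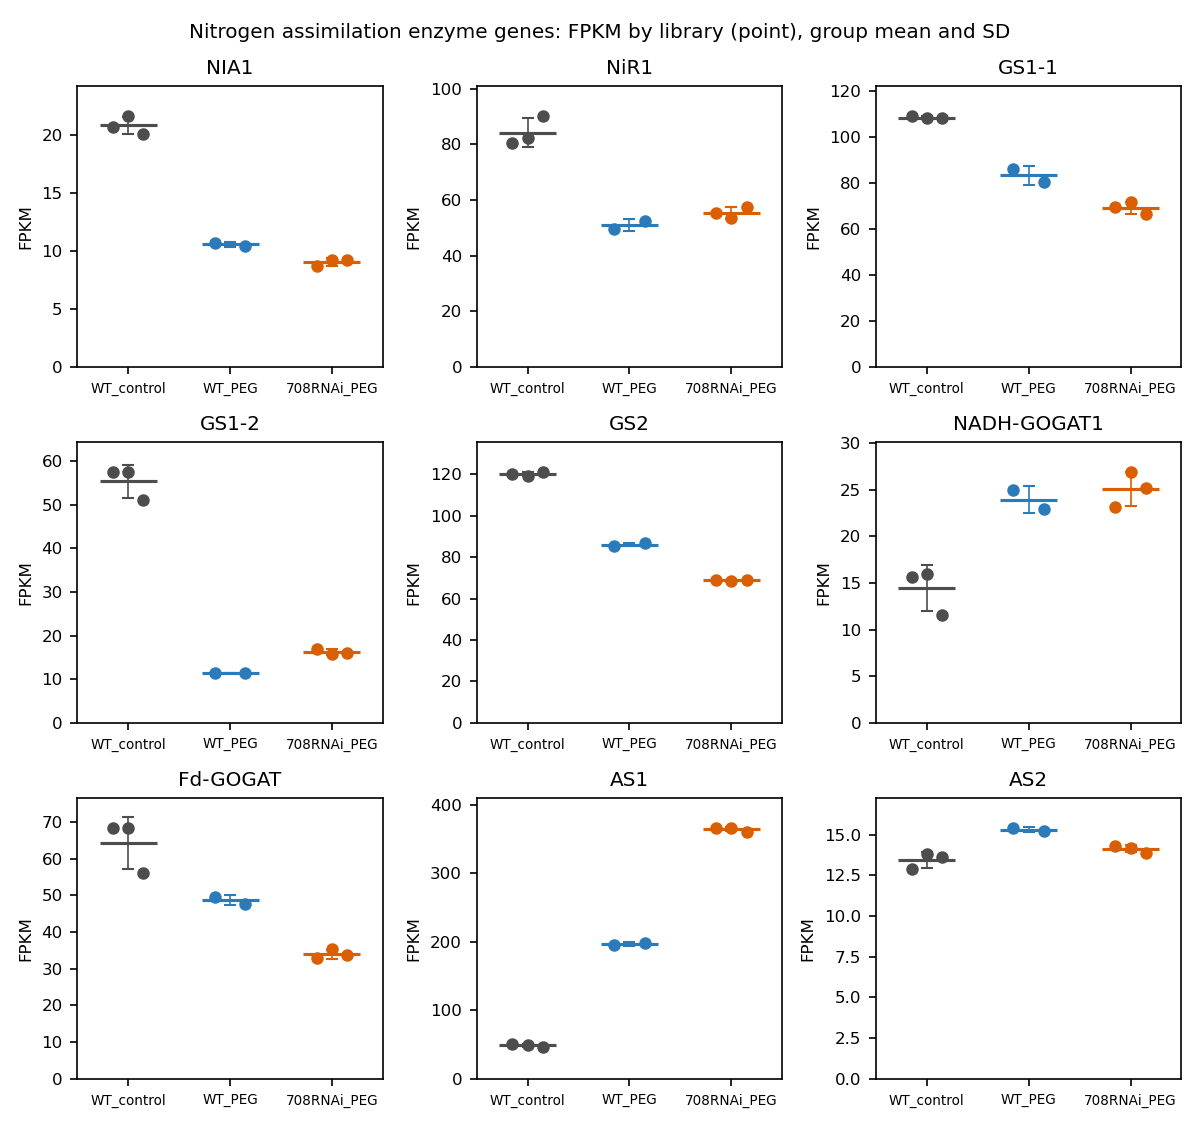
FPKM of the 9 genes in each library (points) of WT_control (n = 3), WT_PEG (n = 2) and 708RNAi_PEG (n = 3), with the group mean (bar) and SD (whisker), each panel on its own linear axis from 0. AS1 climbed from a mean of 49.1 to 197 and 364 FPKM over the 3 groups, while GS1-2 stood at 55.4, 11.5 and 16.3 FPKM.

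Recovered reads per library ran from 30817846 to 49707663, and the 9 genes had between 1508 and 78431 reads each per library. Recovered reads came to 86.97% to 91.3% of the denominator behind the FPKM values in WT_control. They came to 97.33% to 98.33% of it in WT_PEG and 101.4% to 103.3% in 708RNAi_PEG. FPKM are thus not scaled to the recovered reads, and the gap differs by group. Replicate 3 of WT_control stood apart from replicates 1 and 2, with median absolute log2 differences of 0.106 and 0.109 from them, against 0.0474 between those 2 libraries. Sums of leaf photosynthesis transcripts, 13 loci, were 28505 to 32399.5 FPKM in WT_control, 15856 to 16825 in WT_PEG and 11379 to 11916 in 708RNAi_PEG, and none of the 13 was at 0. For 3 root genes, none at 0, the sums were 422 to 455, 63.5 to 64.3 and 50.1 to 53.8 FPKM. For 7 seed glutelin genes they were 1.20 to 1.32, 1.11 to 1.89 and 13.4 to 13.9 FPKM, with 4, 2 and 0 of the 7 at 0 in every library of the group. Leaf genes were called lower in 11 of 13 cases under PEG and 10 of 13 in the RNAi line. Root genes were called lower in 3 of 3 and 1 of 3. Of all loci tested, 36.8% were called lower under PEG and 16.4% in the RNAi line. Of the glutelin genes 3 passed the filter, LOC_Os01g55690 and LOC_Os02g15150 among them through the RNAi libraries alone, so no count of calls is given, and the 7 together had 102 to 116, 84 to 152 and 869 to 1396 reads per library in the 3 groups. In bulk seedlings, fewer cells of a type cannot be told apart from less RNA per cell, and the part of these markers in the results for the 9 genes was not tested.

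The first comparison asked what PEG did in wild-type, with limma on log2(FPKM + 1) and Benjamini-Hochberg adjustment over 20943 loci. All 9 genes passed an adjusted p of 0.05, 3 higher and 6 lower, with the call of AS2 dependent on scaling. So did 75.3% of all loci tested, 38.6% higher and 36.8% lower, so passing is not particular to these genes. Their median log2 change was -0.39, and that of all loci tested was 0.02.

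Nitrate reductase commits nitrate to assimilation. NIA1 was at 20.7, 21.6 and 20.1 FPKM in WT_control, 10.7 and 10.4 in WT_PEG, and 8.66, 9.25 and 9.25 in 708RNAi_PEG. Every treated library lay below every untreated one, and the RNAi libraries were the lowest without overlap. The PEG change was -0.91 ± 0.05 on the log2(FPKM + 1) scale (SE, limma adjusted p = 1.6e-07), a ratio of 0.509 in mean FPKM. NIA2 (LOC_Os08g36500), a near copy on the same chromosome whose reads may have been divided uncertainly with NIA1, had mean FPKM of 5.66, 3.06 and 2.5 in the 3 groups, and its PEG change was -0.71 ± 0.08 (log2 scale, limma adjusted p = 2.1e-05).

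NiR1 reduces nitrite, which is toxic, to ammonium in the plastid. It was at 80.4, 82.3 and 90.2 FPKM in WT_control, 49.6 and 52.6 in WT_PEG, and 55.2, 53.4 and 57.6 in 708RNAi_PEG. The untreated libraries were the highest, and the RNAi libraries lay just above those of treated wild-type without overlap. NiR1 fell by 0.71 ± 0.06 under PEG on the log2(FPKM + 1) scale (SE, limma adjusted p = 4.8e-06), to 0.607 of its untreated mean FPKM.

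GS1-1 is the cytosolic glutamine synthetase found widely in rice shoots. It was at 109, 108 and 108 FPKM in WT_control, 86.1 and 80.4 in WT_PEG, and 69.7, 71.6 and 66.3 in 708RNAi_PEG. The groups formed 3 steps downward with no overlap. The PEG step was -0.38 ± 0.05 on the log2(FPKM + 1) scale (limma adjusted p = 0.00012), a ratio of 0.768 in mean FPKM.

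GS1-2, the cytosolic isoenzyme known in rice for ammonium assimilation in roots, was at 57.5, 57.5 and 51.1 FPKM in WT_control, 11.5 and 11.5 in WT_PEG, and 17.0, 15.7 and 16.1 in 708RNAi_PEG. Treated wild-type was the lowest group, and the RNAi line lay between it and the untreated plants with no overlap on either side. The PEG change of -2.17 ± 0.06 (log2(FPKM + 1) scale, limma adjusted p = 2e-09) was the 163rd lowest of the 20943 loci. The 3 root marker genes were lower as well, with a median log2 change of -3.01.

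GS2, the plastid isoenzyme, was at 120.0, 119 and 121 FPKM in WT_control, 85.5 and 86.6 in WT_PEG, and 69.1, 68.7 and 68.8 in 708RNAi_PEG. It stepped down over the 3 groups without overlap, as GS1-1 did. The PEG change was -0.48 ± 0.04 on the log2(FPKM + 1) scale (limma adjusted p = 5e-06), a ratio of 0.716 in mean FPKM. The 13 leaf genes had a median log2 change of -0.89.

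The glutamate synthases moved in opposite directions under PEG. NADH-GOGAT1 was at 15.7, 16.0 and 11.6 FPKM in WT_control, 25.0 and 22.9 in WT_PEG, and 23.2, 26.9 and 25.2 in 708RNAi_PEG. Every treated library was above every untreated one, and the treated genotypes overlapped. The PEG change was 0.70 ± 0.12 on the log2(FPKM + 1) scale (limma adjusted p = 0.00058), and 0.56 ± 0.07 without replicate 3 of WT_control, which was at 0.732 of the mean of the other untreated libraries.

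Fd-GOGAT, which uses ferredoxin reduced in the light, was at 68.3, 68.3 and 56.2 FPKM in WT_control, 49.6 and 47.7 in WT_PEG, and 32.8, 35.3 and 33.8 in 708RNAi_PEG. The groups again stepped down without overlap, although replicate 3 of WT_control lay closer to treated wild-type than the other untreated libraries did. The PEG change was -0.39 ± 0.08 on the log2(FPKM + 1) scale (limma adjusted p = 0.0021), and -0.48 ± 0.04 without that replicate.

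AS1 was at 51.1, 50.0 and 46.3 FPKM in WT_control, 195 and 199 in WT_PEG, and 366, 366 and 361 in 708RNAi_PEG. Each group was tight, and the groups were far apart. The PEG change was 1.98 ± 0.05 on the log2(FPKM + 1) scale (limma adjusted p = 1.8e-09), the 728th highest of 20943 loci. Ranked by mean FPKM among those loci, AS1 stood at 1060 in WT_control, 259 in WT_PEG and 148 in 708RNAi_PEG. FPKM here is per length of the whole gene, introns included, so the rank between genes depends on intron length, while ratios of 1 gene between libraries do not.

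AS2, the other asparagine synthetase gene, was at 12.9, 13.8 and 13.6 FPKM in WT_control, 15.4 and 15.2 in WT_PEG, and 14.3, 14.2 and 13.9 in 708RNAi_PEG. Treated wild-type was the highest group and the untreated plants the lowest, in a narrow range. The PEG change of 0.17 ± 0.04 (log2(FPKM + 1) scale, limma adjusted p = 0.0057) depended on how libraries were scaled. It was 0.04 with scaling to total recovered reads (limma adjusted p = 0.46) and -0.01 after quantile normalization (limma adjusted p = 0.8), so no direction is given for AS2.

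**Figure D2:**
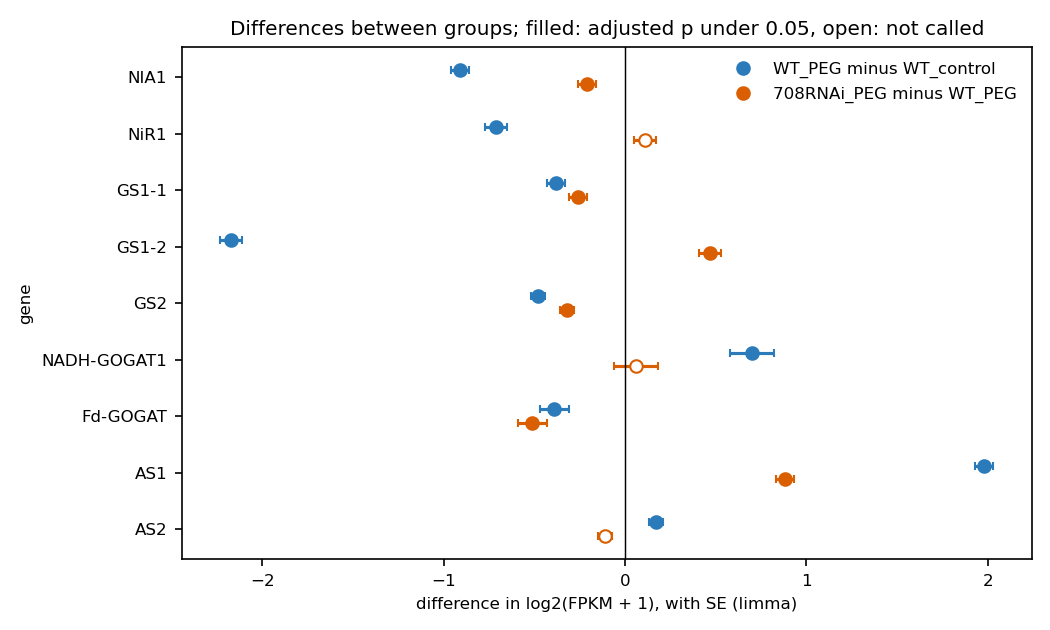
Change of each gene on the log2(FPKM + 1) scale with its SE from limma, for WT_PEG minus WT_control and 708RNAi_PEG minus WT_PEG. GS1-2 (-2.17) and AS1 (1.98) lie at the ends of the PEG response, and AS1 (0.88) is the highest point of the RNAi comparison.

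The second comparison asked how the RNAi line differed from wild-type, both under PEG. It shares the WT_PEG libraries with the first comparison, so the values of both are set side by side and nothing is read from their likeness. The RNAi line had 2 of the 9 genes higher, 4 lower and 3 not called. Among all loci tested 37.6% were called, 21.3% higher and 16.4% lower. The median log2 difference was -0.11 over the 9 genes and 0.01 over all loci.

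AS1 was higher in 3 of 3 RNAi libraries than in both WT_PEG libraries, with a difference of 0.88 ± 0.05 on the log2(FPKM + 1) scale (limma adjusted p = 4.3e-06), the 370th highest of 20943 loci. GS1-2 was higher by 0.47 ± 0.06 on that scale (limma adjusted p = 0.00035), which left it at 0.294 of its untreated wild-type mean FPKM. These were the genes with the largest PEG changes among the 9. In the RNAi line AS1 lay farther from the untreated level than in treated wild-type, and GS1-2 lay nearer to it. In the same comparison the summed glutelin level was 13.4 to 13.9 FPKM against 1.11 to 1.89, and the 3 root genes had a median log2 difference of -0.12.

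Fd-GOGAT was lower in the RNAi line by the widest margin of the 9, with a difference of -0.51 ± 0.08 on the log2(FPKM + 1) scale (limma adjusted p = 0.0014) and a mean FPKM ratio of 0.697. GS2, likewise a chloroplast enzyme gene, differed by -0.32 ± 0.04 (log2 scale, limma adjusted p = 0.00041), a ratio of 0.800. The 13 leaf genes had a median log2 difference of -0.57 in the same comparison, 10 lower and 0 higher, where 16.4% of all loci were lower. A link between them and these enzyme genes was not tested. NiR1, whose enzyme is also in the plastid, was at 0.11 ± 0.06 and not called (limma adjusted p = 0.19), though its libraries did not overlap between the genotypes. GS1-1 differed by -0.26 ± 0.05 on the log2 scale (limma adjusted p = 0.004), a ratio of 0.831.

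NIA1 differed by -0.21 ± 0.05 on the log2(FPKM + 1) scale (limma adjusted p = 0.011), a ratio of 0.855 in mean FPKM. Without replicate 1 of WT_PEG the NIA1 difference was -0.19 and no longer called (limma adjusted p = 0.077). For NIA2 the difference of -0.21 ± 0.08 was not called (log2 scale, limma adjusted p = 0.056), but it stayed uncalled in only 11 of 19 alternatives and had an adjusted p as low as 0.014 in the rest.

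The 3 genes not called were NiR1, with a log2 difference of 0.11 ± 0.06 (limma adjusted p = 0.19), NADH-GOGAT1, with 0.06 ± 0.12 (limma adjusted p = 0.72), and AS2, with -0.11 ± 0.04 (limma adjusted p = 0.089). These values do not show that the genotypes were alike. AS2 was called lower in the RNAi line with 4 other scalings or tests, for example by -0.17 with scaling to total recovered reads (limma adjusted p = 0.021). In the authors' deposited table the p-values for NiR1, NADH-GOGAT1 and AS2 were 0.081, 0.54 and 0.048, and the sources used here do not say whether they are adjusted.

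Against untreated wild-type, with genotype and treatment both different, the treated RNAi line had 2 of the 9 genes higher, 6 lower and 1, AS2, not called, where 81.1% of all loci were called, 41.0% higher and 40.0% lower. This comparison shares libraries with the other pair and serves to order the 3 levels. AS1 was 7.41 times as high in mean FPKM, a log2(FPKM + 1) change of 2.87 (limma adjusted p = 4.6e-11), and NADH-GOGAT1 was 1.74 times as high. Fd-GOGAT stood at 0.528, GS2 at 0.573, GS1-1 at 0.638, NiR1 at 0.657, NIA1 at 0.435 and GS1-2 at 0.294 of their untreated mean FPKM. By mean FPKM, NIA1, GS1-1, GS2 and Fd-GOGAT were ordered WT_control, WT_PEG, 708RNAi_PEG from high to low, and AS1 was ordered the other way. In NADH-GOGAT1 the treated genotypes, next to each other in the order, did not differ beyond their spread.

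Genes for the same or neighbouring steps were then set against each other within each library, as the log2 ratio of their FPKM, where gene length cancels between groups. The log2 ratio of GS1-2 to GS1-1 averaged -0.97 ± 0.09 for the 3 WT_control libraries, -2.86 ± 0.07 for the 2 WT_PEG libraries and -2.09 ± 0.09 for the 3 RNAi libraries (mean ± SD). The balance of GS1-2 and GS1-1 transcripts thus shifted 3.70-fold from GS1-2 under PEG. It stood 1.71-fold nearer to GS1-2 in the RNAi line, with no overlap of libraries in either comparison. The log2 ratio of GS2 to GS1-1 moved far less, from 0.15 ± 0.02 to 0.05 ± 0.08 and -0.01 ± 0.06, and its values overlapped between the treated genotypes.

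The log2 ratio of NADH-GOGAT1 to Fd-GOGAT was -2.16 ± 0.10 in WT_control, -1.03 ± 0.05 in WT_PEG and -0.44 ± 0.06 in 708RNAi_PEG (SD). That ratio moved toward the transcripts of NADH-GOGAT1 by 2.20-fold under PEG and by a further 1.5-fold in the RNAi line. For AS2 to AS1 the log2 ratio was -1.87 ± 0.11, -3.69 ± 0.04 and -4.69 ± 0.01, a step of 3.52-fold and then of 2.0-fold toward AS1. For NiR1 to NIA1 it was 2.02 ± 0.13, 2.27 ± 0.09 and 2.61 ± 0.07. In exact two-sided permutation tests, 9 of these 10 comparisons gave p = 0.2 (Benjamini-Hochberg adjusted 0.22), the smallest that 3 against 2 libraries allow, and GS2 to GS1-1 between the treated genotypes gave p = 0.4, so this design cannot reach 0.05.

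**Figure D3:**
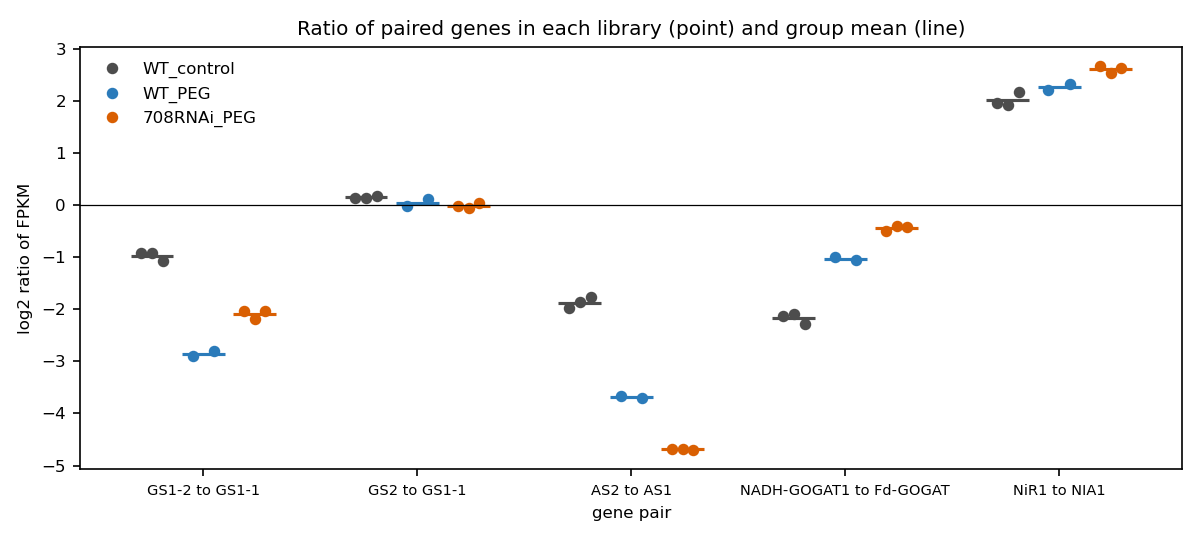
Log2 ratio of FPKM for 5 pairs of genes in each library (points) of WT_control, WT_PEG and 708RNAi_PEG, with the group mean (bar). The ratio of AS2 to AS1 drops from -1.87 to -3.69 and -4.69, and that of NADH-GOGAT1 to Fd-GOGAT climbs from -2.16 to -1.03 and -0.44.

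A list of 32 further genes of nitrogen metabolism placed the 9 in their pathway. The names of 8 of the 32 were found in the RefSeq table and 24, those of NR2, the glutamate decarboxylases and the asparaginases among them, were given from memory of the locus identifiers and not checked. Of the 32, 26 passed the filter, and 1 of these, LOC_Os09g26380, did so through the WT_PEG libraries alone and is left out of the counts. Of the other 25, 12 were higher and 10 lower under PEG and 3 were not called (limma), where 38.6% of all loci were higher and 36.8% lower. Between the treated genotypes 6 were higher in the RNAi line, 8 lower and 11 not called, where 21.3% of all loci were higher and 16.4% lower. Both counts moved with the libraries and the scaling. Under PEG 9 were higher and 10 lower with scaling to total recovered reads and with limma-voom on recovered reads. That count was 13 and 10 without replicate 2 of WT_control, and 10 and 9 without either replicate of WT_PEG. The RNAi count was 3 higher and 6 lower without replicate 2 of WT_PEG and 5 and 6 without replicate 1. It was 3 and 11 with scaling to total recovered reads, and 4 and 12 with limma-voom on recovered reads.

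NR2 (LOC_Os02g53130) encodes a further nitrate reductase, which accepts NADH or NADPH. It was at 3.67, 3.42 and 3.43 FPKM in WT_control, 45.0 and 42.9 in WT_PEG, and 77.6, 79.9 and 81.5 in 708RNAi_PEG. The groups did not overlap and stepped upward, the reverse of NIA1. The PEG change of NR2 was 3.32 ± 0.05 on the log2(FPKM + 1) scale (limma adjusted p = 4.3e-11), a 12.5-fold ratio of mean FPKM, and the RNAi difference was 0.84 ± 0.05 (limma adjusted p = 2.7e-06). The further nitrite reductase gene NiR2 (LOC_Os02g52730), not tested because of its low values, had means of 0.769, 0.469 and 0.649 FPKM.

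The remaining isoenzyme genes were low. NADH-GOGAT2 (LOC_Os05g48200) had mean FPKM of 1.99, 2.42 and 1.39 over the 3 groups. It was lower in the RNAi line, with a difference of -0.52 ± 0.08 on the log2(FPKM + 1) scale (limma adjusted p = 0.00073), whereas its PEG change of 0.20 ± 0.08 (limma adjusted p = 0.04) was called in 5 of the 18 alternatives in which it was tested. GS1-3 (LOC_Os03g50490), a glutamine synthetase gene known from rice spikelets, had 11 to 25 reads per library in WT_control, 72 to 78 in WT_PEG and 101 to 163 in 708RNAi_PEG, and was not tested.

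Glutamate dehydrogenase can release ammonium from glutamate or bind it. GDH1 (LOC_Os03g58040) was at 11.9, 11.7 and 12.2 FPKM in WT_control, 7.34 and 6.93 in WT_PEG, and 6.84, 7.10 and 6.74 in 708RNAi_PEG. GDH1 fell under PEG by 0.67 on the log2(FPKM + 1) scale (limma adjusted p = 9.3e-07) and the treated genotypes overlapped. GDH2 (LOC_Os04g45970) was at 7.54, 7.52 and 6.87 FPKM in WT_control, 23.8 and 21.3 in WT_PEG, and 38.1, 38.0 and 38.5 in 708RNAi_PEG. The groups stepped upward without overlap, by 1.5 ± 0.06 (limma adjusted p = 1.7e-08) and 0.74 ± 0.06 (limma adjusted p = 2e-05) on the log2 scale. GDH3 (LOC_Os02g43470) had 1 to 3 reads per library in WT_control, 7 to 9 in WT_PEG and 15 to 40 in 708RNAi_PEG, and was not tested.

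Genes for enzymes that use glutamate or asparagine followed. Glutamate decarboxylase makes γ-aminobutyrate from glutamate, and 3 of 3 tested genes were higher under PEG, where 38.6% of all loci were, though GAD4 (LOC_Os04g37500) was called in 11 of 19 alternatives. GAD3 (LOC_Os03g13300) was at 3.09, 3.27 and 2.82 FPKM in WT_control and 43.1 and 39.1 in WT_PEG, a log2(FPKM + 1) change of 3.37 ± 0.06 (limma adjusted p = 1.7e-10). GAD1 (LOC_Os08g36320) had mean FPKM of 23.4 in WT_control and 89.0 in WT_PEG, a log2 change of 1.88 ± 0.05 (limma adjusted p = 1.8e-09). Between the treated genotypes 0 of the 3 were called by limma, where 37.6% of all loci were called. The log2 differences were 0.17 ± 0.06 for GAD3, -0.11 ± 0.05 for GAD1 and 0.14 ± 0.06 for GAD4. These genes stayed uncalled in 13, 16 and 18 of 19 alternatives, in that order. For all 3 the libraries did not overlap between the genotypes.

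Asparaginase breaks asparagine, the product of AS1 and AS2, down to aspartate and ammonium. Both asparaginase genes were lower under PEG, as were 36.8% of all loci. ASNase2 (LOC_Os03g40070) had mean FPKM of 5.20, 1.57 and 1.64 over the 3 groups, a PEG change of -1.27 ± 0.07 on the log2(FPKM + 1) scale (limma adjusted p = 2.6e-07). ASNase1 (LOC_Os04g55710) had mean FPKM of 127, 60.4 and 56.5, a PEG change of -1.06 ± 0.08 (log2 scale, limma adjusted p = 1.6e-06). Neither was called between the treated genotypes, whose libraries overlapped, where 37.6% of all loci were called.

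Aminotransferases move amino groups between glutamate and other amino acids. Of 7 counted, 2 were higher and 3 lower under PEG, against 38.6% and 36.8% of all loci tested. In the RNAi line 2 were higher and 3 lower, where 21.3% of all loci were higher and 16.4% lower. The RNAi counts were 0 and 2 without replicate 2 of WT_PEG and 1 and 2 without replicate 1. With scaling to total recovered reads they were 0 and 3. The alanine aminotransferase gene LOC_Os07g01760 was at 122, 125 and 119 FPKM in WT_control, 68.9 and 68.8 in WT_PEG, and 41.2, 43.1 and 40.9 in 708RNAi_PEG, stepping down without overlap. Its log2(FPKM + 1) difference in the RNAi line was -0.71 ± 0.05 (limma adjusted p = 6.2e-06). LOC_Os09g26380, of the same family, had 1 to 3 reads per library in WT_control, 262 and 283 in the WT_PEG libraries and 167 to 281 in 708RNAi_PEG. Its mean was 1.25 FPKM in WT_PEG and 0.944 in 708RNAi_PEG, just under the filter.

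NIN-like proteins are transcription factors that act in the nitrate response. Of 6 genes tested, 3 were higher and 2 lower under PEG, a share near the 75.3% of all loci called, and NLP1 (LOC_Os03g03900), counted as higher, was called in 14 of 19 alternatives. In the RNAi line 1 was higher and 4 lower, where 37.6% of all loci were called. NLP6 (LOC_Os02g04340) had mean FPKM of 2.03, 3.35 and 5.71 over the 3 groups, an RNAi difference of 0.62 ± 0.06 on the log2(FPKM + 1) scale (limma adjusted p = 6.8e-05). NLP4 (LOC_Os09g37710) had mean FPKM of 3.31, 2.03 and 1.03, a difference of -0.58 ± 0.09 (log2 scale, limma adjusted p = 0.00072).

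**Figure D4:**
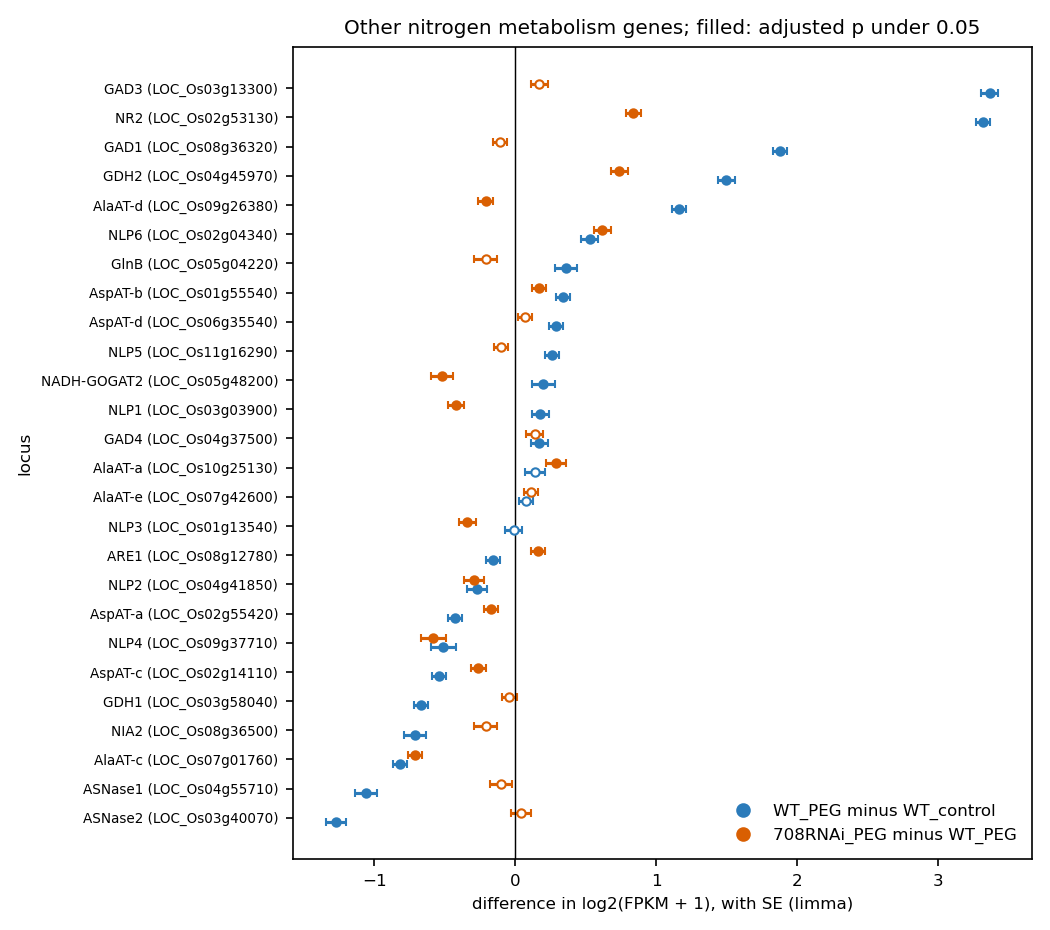
Change of the 26 tested genes of the nitrogen metabolism list on the log2(FPKM + 1) scale with its SE from limma, for WT_PEG minus WT_control and 708RNAi_PEG minus WT_PEG, where filled points passed an adjusted p of 0.05. LOC_Os09g26380 (AlaAT-d) passed the filter through WT_PEG alone. GAD3 (3.37) and NR2 (3.32) lie highest under PEG, ASNase2 (-1.27) lowest, and in the RNAi line NR2 (0.84) lies highest and the alanine aminotransferase gene AlaAT-c, LOC_Os07g01760, lowest (-0.71).

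Nearness of the changes was measured over the 8 libraries as the root mean square difference of log2(FPKM + 1), after each gene's WT_control mean was subtracted, among 34 loci other than the gene itself. This distance grows with the size of the changes, so it names the nearest locus to each gene and is not compared between genes. GS2 was nearest to the aspartate aminotransferase gene LOC_Os02g14110 (0.04) and GS1-1 to LOC_Os02g55420, of the same family (0.06). NIA1 was closest to ASNase1 (0.13) and then NIA2 (0.17), NiR1 to GDH1 (0.10), Fd-GOGAT to GS2 (0.12) and AS2 to NLP5 (0.08). NADH-GOGAT1 had the aspartate aminotransferase gene LOC_Os01g55540 as its nearest (0.26). The nearest to AS1 was GDH2 (0.46), and the nearest to GS1-2 was ASNase2 (0.55).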

How the data were processed

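The deposited table holds FPKM per gene and library, made by the authors. It also holds a log2 fold change and a p-value per gene, as deposited, for each of the authors' comparisons. The submitters' processing notes list HISAT2, featureCounts, DESeq2, cutadapt, SAMtools, FastQC and deepTools with no role or version. Genome build, annotation and use of strand in counting were not given in the sources used here, so overlapping antisense genes may share reads. The lengths behind the FPKM values span whole genes. The steps of the FPKM values gave whole reads for 34118 of 34119 rows within 0.03 reads. No sequences are printed because the reference used held names only (RefSeq, ASM3414082v1), and 0 locus identifiers occur in it.

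Loci that reached FPKM 1 in 2 or more libraries (20943) were tested as log2(FPKM + 1), which understates changes of low genes. The test was limma's lmFit, contrasts.fit and eBayes with trend (version 3.58.1, R 4.3.3), over the 3 groups together, with 5 residual degrees of freedom and a two-sided Benjamini-Hochberg adjusted p under 0.05. The same steps were run on counts simulated at the WT_PEG means, with some loci changed in the RNAi group only. That setting differs from these data, where 75.3% of loci were called under PEG, so no accuracy is claimed from it. Groups came from the sample titles. Ratios are of mean FPKM. Replicate numbers were used as a block only as an alternative. The other alternatives, 19 per comparison in all, changed the pseudocount, filter, scaling, test, weights or libraries. Of the list of 32 genes, the 6 called with the largest change in each comparison, the glutamate dehydrogenases and the isoenzymes of the 9 enzymes were named, and NLP5, GAD4, ASNase1 and the genes nearest in pattern in addition. The members and lists were chosen with earlier results of these data known.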

Additional observations from a re-analysis of the deposited data

How the results depend on the processing

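The count of called genes among the 9 stayed within 1.5 times in each comparison and alternative, and 501 of 513 recomputed fold changes of the 9 genes kept direction and call. Of the other 12, 3 lost the call, 5 gained one and 4 reversed, all of AS2 except the loss for NIA1 in the RNAi comparison. AS2 reversed to -0.01 under PEG after quantile normalization, and in the RNAi line against untreated wild-type to -0.20 after quantile normalization, -0.13 with total recovered reads and -0.14 with limma-voom on recovered reads. Over all loci, a filter at FPKM of 5 left fewer loci to call, 9813 under PEG and 10348 in the RNAi line against untreated wild-type. Leaving out 1 library at a time gave 5135 (without replicate 2 of WT_PEG) to 9339 (without replicate 3 of WT_control) loci in the RNAi comparison, against 7879. Scaling to total recovered reads shifted the median log2 change of all loci from 0.02 to -0.09 under PEG, with 6520 higher and 9205 lower against 8076 and 7702, and the split in the RNAi comparison was 3439 and 4402 against 4451 and 3428. Limma-voom called 6565 and 9219 under PEG. Correlations of same-numbered deviations from group means ran from -0.234 to 0.361, and those of different-numbered ones from -0.403 to 0.332. With means of so few libraries the deviations within a group depend on each other, so these values cannot decide whether replicate numbers pair the libraries. With the replicate block, limma called 8169 higher and 7680 lower under PEG and 4265 and 3449 in the RNAi comparison, and no call among the 9 changed. Precision is limited by 2 libraries of WT_PEG.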
